A study of Mus musculus with 4 samples.

Results

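The ERBB family was described through 10 genes of Nf2-deficient mouse Schwann cells exposed to NXD30001, which the series names as an inhibitor of the chaperone HSP90. They were taken by symbol from each of 2 deposited gene tables of 35604 rows, and all 10 were present in both with an accepted estimate. They are the 4 receptor genes Egfr, Erbb2, Erbb3 and Erbb4, the ligand genes Nrg1, Hbegf, Tgfa, Areg and Ereg, and the feedback inhibitor gene Errfi1. The cells were ESC-FC1801, a line derived from embryonic Schwann cells of floxed Nf2 mice on an FVB/N background, in which Nf2 was deleted in culture with an adenovirus carrying Cre. All 4 groups, controls included, carry this deletion, and each group is 1 library. Cultured cells received 1 µM NXD30001 or DMSO for 24 h. Mice carrying ESC-FC1801 tumours received NXD30001 at 100 mg/kg or vehicle, 3 times a week for 4 weeks. The culture medium was serum-free N2 medium with 10 ng/mL neuregulin-β1, itself an ERBB ligand, and 2 µM forskolin, which raises cAMP. Everything rests on 1 cell line. The sources used here do not give the number of tumours behind a library, and tumours contain host cells, whose Nf2 gene is intact.

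ERBB receptors are membrane tyrosine kinases that signal as pairs. EGFR binds EGF-like ligands such as TGFα, amphiregulin, epiregulin and HB-EGF, ERBB3 and ERBB4 bind neuregulins, ERBB2 has no known ligand of its own, and ERBB3 has little kinase activity and relies on a partner. In the Schwann cell lineage, neuregulin-1 from axons acts through ERBB2 and ERBB3 and is known for its role in survival, proliferation and myelination. ERBB2 protein is a well-known client of HSP90. RNA levels do not show the amount of any protein, and no protein was measured in these files.

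Levels are FPKM, fragments counted per kilobase of transcript and scaled to the mapped total, so they can be compared between genes of a library. Each difference is NXD30001 minus its untreated control in log2(FPKM + 1), which understates the change of low genes. A gene was compared where it reached 1 FPKM in either library, and a difference was counted from 2-fold on that scale. With 1 library a group there is no replicate error and no p-value, so "higher" and "lower" are statements on the single libraries. The counting depth is not given by FPKM. The error implied by the authors' own test statistic is given as the 95% interval of the log2 ratio without a pseudocount. That interval covers no spread between cultures or animals. Its median error for genes at 3 to 30 FPKM was 0.80 (log2) in culture and 0.41 in tumours, so single differences in culture are the less certain ones. The median difference of all compared genes was -0.25 in culture and -0.03 in tumours, and values relative to it are given where they matter. Nf2 itself was at 12.5 FPKM with NXD30001 and 15.9 FPKM with DMSO in culture, and at 42.8 FPKM in the NXD30001 tumour and 57.2 FPKM in the vehicle tumour. These gene-level values do not check the deletion, since they do not separate exons.

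In culture, Tgfa was higher with NXD30001 while Erbb3 and Errfi1 were lower. In tumours, Erbb3 was higher with NXD30001 while Egfr and Nrg1 were lower. Of the 10 genes, 5 were compared in culture (Erbb2, Erbb3, Hbegf, Tgfa and Errfi1), and the other 5 were under 1 FPKM in both culture libraries. Among the 5, 1 was at least 2-fold higher, against 12.3% of the 12476 genes compared in culture, and 2 were at least 2-fold lower, against 24.7%. The higher gene, Tgfa, entered only through the NXD30001 library, so the minimum level fixed its direction. With 5 genes, neither count can be said to differ from the share of all genes or to match it. In tumours 8 were compared, all but Erbb4 and Tgfa. Of these, 1 was at least 2-fold higher, against 7.08% of 15373 genes, and 2 were at least 2-fold lower, against 6.74%. The authors' deposited table called 1 of the 5 culture genes, Tgfa, as higher, where 2.76% of all compared genes were called higher and 7.22% lower. In tumours the authors' deposited table called Erbb3 higher and Egfr and Nrg1 lower, against 3.14% and 2.47% of all compared genes. The median difference was -0.48 over the 5 genes of culture and -0.46 over the 8 of the tumours.

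**Figure D1:**
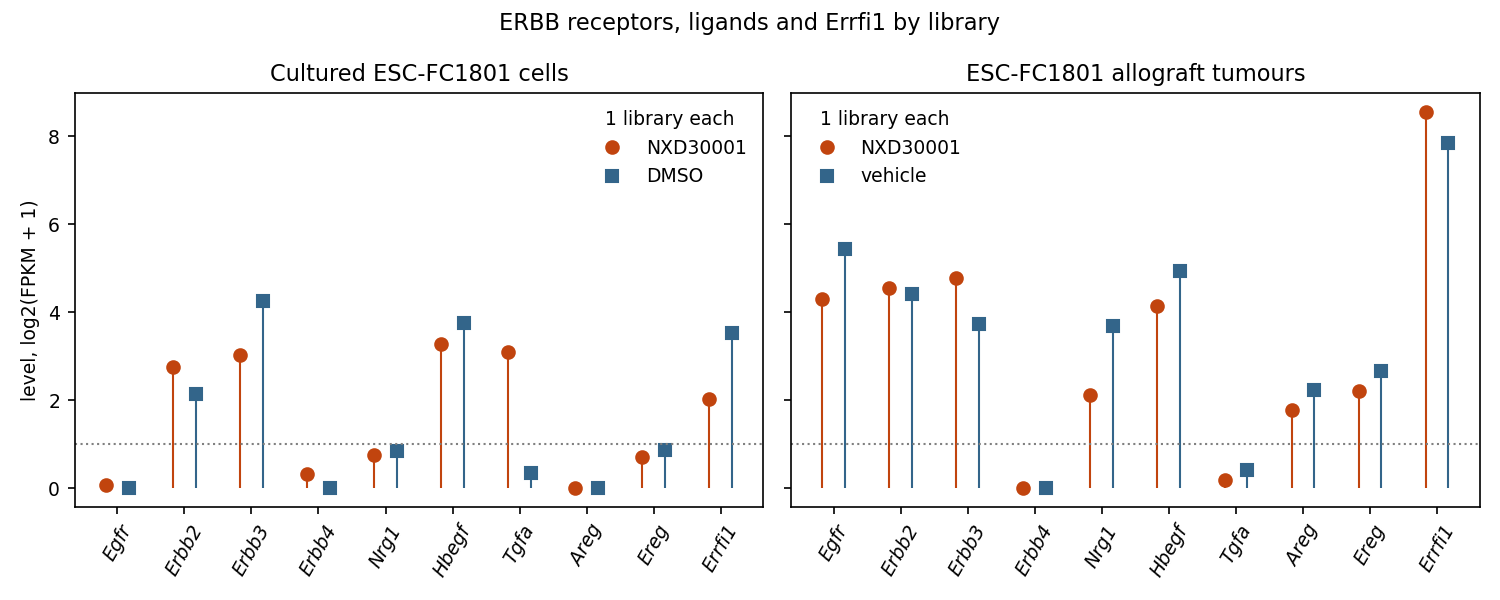
Level of each gene in log2(FPKM + 1), cultured cells on the left and tumours on the right, with 1 library per symbol; the dotted line marks 1 FPKM. Egfr, Areg, Ereg and Nrg1 lie under the line in both culture libraries and above it in both tumour libraries, and Errfi1 is the highest of the 10 genes in both tumour libraries.

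Erbb3 (ENSMUSG00000018166, chromosome 10 from 128004579 to 128026708, mm9) encodes the neuregulin receptor of Schwann cells. It was at 7.17 FPKM with NXD30001 and 18.1 FPKM with DMSO in culture. In tumours it was at 26.3 FPKM with NXD30001 and 12.4 FPKM with vehicle. The treated library was therefore the lower one in culture and the higher one in the tumours. The difference was -1.22 in culture, with an interval of the log2 ratio of -2.86 to 0.19 that includes 0, and the authors' deposited table did not call it (q of 0.524). Relative to the median of all genes it was -0.97, just short of 2-fold. In tumours the difference was 1.03 with an interval of 0.48 to 1.69, and the authors' deposited table called it (q of 0.0197). Of 11433 genes compared in both tables, 1.57% were at least 2-fold lower in culture and at least 2-fold higher in tumours, as Erbb3 was.

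Most Schwann cell markers differed in the same direction as Erbb3 in culture and in tumours. Of 11 markers, Erbb3 among them, 10 were compared in culture. Of these, 7, Erbb3 included, were at least 2-fold lower with NXD30001, against 24.7% of all compared genes. Another 1 was at least 2-fold higher, against 12.3%. Sox10, a transcription factor of the Schwann lineage, was at 4.40 FPKM with NXD30001 and 8.42 FPKM with DMSO in culture. Ngfr, the low-affinity neurotrophin receptor gene, was at 7.68 FPKM with NXD30001 and 22.5 FPKM with DMSO. The Sox10 difference of -0.80 in culture was under 2-fold, and the authors' deposited table called neither gene there. The summed level of the list ran the other way, at 563 FPKM with NXD30001 and 327 FPKM with DMSO. In tumours 9 of the markers were compared, 7 were at least 2-fold higher, against 7.08% of all compared genes, and none was lower. The summed level in tumours was 617 FPKM with NXD30001 and 214 FPKM with vehicle. There Sox10 was at 140 FPKM with NXD30001 and 47.0 FPKM with vehicle, and Ngfr at 52.2 FPKM with NXD30001 and 18.1 FPKM with vehicle. S100b, a defining Schwann cell marker, stayed under 1 FPKM in all 4 libraries, at 0.0538 FPKM with NXD30001 and 0.563 FPKM with DMSO in culture. In the tumours S100b was listed at 0 with NXD30001 and at 0.305 FPKM with vehicle. In bulk tissue, fewer cells of a type and less RNA per cell cannot be told apart, and the part of these markers in the Erbb3 difference was not tested.

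Egfr (ENSMUSG00000020122, chromosome 11 from 16652206 to 16818161, mm9) encodes the receptor for most EGF-like ligands. In culture it was nearly missing, at 0.0529 FPKM with NXD30001 and listed at 0 with DMSO. In tumours it was at 18.8 FPKM with NXD30001 and 42.3 FPKM with vehicle. It was thus a tumour transcript in these tables, which were normalized separately, and the most abundant of the receptor genes in the vehicle tumour. The tumour difference was -1.13 with an interval of -1.82 to -0.53, and the authors' deposited table called it (q of 0.0156). Its locus is shared with 1 other row, at 0.248 FPKM with NXD30001 and 0.346 FPKM with vehicle in the tumours.

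Markers of some other cell types were also lower in the NXD30001 tumour, as Egfr was. Over all genes compared in tumours, 6.74% were at least 2-fold lower and 7.08% at least 2-fold higher. Of 6 endothelial markers, 5 were at least 2-fold lower, and the list summed to 23.3 FPKM with NXD30001 and 66.3 FPKM with vehicle. Of 6 macrophage markers in the table, all were lower and 1 was so by at least 2-fold, with sums of 164 FPKM with NXD30001 and 289 FPKM with vehicle. Of 7 epithelial and keratinocyte markers, 3 were compared and 2 of these, the simple keratin genes Krt8 and Krt18, were at least 2-fold lower. Krt8 was at 61.1 FPKM with NXD30001 and 374 FPKM with vehicle, and Krt18 at 1.39 FPKM with NXD30001 and 17.4 FPKM with vehicle. The defining epithelial genes Epcam and Krt14 were listed at 0 in both tumour libraries. The 7 fibroblast and pericyte markers were all within 2-fold, with Pdgfra at 81.5 FPKM with NXD30001 and 142 FPKM with vehicle. In contrast, 4 of 6 mast cell markers were at least 2-fold higher with NXD30001. Of the neuron list only the neurofilament genes Nefl and Nefm were compared, both at least 2-fold higher, and Snap25 and Syt1 were listed at 0 in both tumours. Of the skeletal muscle list 1 of 2 compared genes, Mylpf, was at least 2-fold higher. Its implied error was wide, at 2.09 (log2), and the authors' deposited table did not call it. Ckm was listed at 0 in both tumours, while Cd4, the 1 compared T cell marker, was within 2-fold. In culture the endothelial and macrophage lists were low in both libraries, with endothelial sums of 2.20 FPKM with NXD30001 and 0.0575 FPKM with DMSO and macrophage sums of 2.04 FPKM with NXD30001 and 2.55 FPKM with DMSO. The endothelial sum with NXD30001 was nearly all from Tek, at 2.18 FPKM with NXD30001 and 0.0324 FPKM with DMSO, which the authors' deposited table called higher. Which cells carried the Egfr transcripts is not shown by these files, and the part of these cell types in the Egfr difference was not tested.

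Erbb2 (ENSMUSG00000062312, chromosome 11 from 98273784 to 98300360, mm9) encodes the partner receptor of ERBB3. It was at 5.76 FPKM with NXD30001 and 3.43 FPKM with DMSO in culture. In tumours it was at 22.3 FPKM with NXD30001 and 20.5 FPKM with vehicle. The difference was 0.61 in culture, with a wide interval of -0.93 to 2.42, and 0.12 in tumours, with an interval of -0.42 to 0.66. The Erbb2 locus is shared with 3 other rows, of which 1810046J19Rik was the more abundant at 27.1 FPKM with NXD30001 and 42.5 FPKM with DMSO in culture. In tumours that row was at 38.1 FPKM with NXD30001 and 42.9 FPKM with vehicle. Reads at this locus are therefore not assigned with certainty.

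Erbb4 (ENSMUSG00000062209, chromosome 1 from 68078760 to 69154633, mm9), the other neuregulin-binding receptor gene, was at 0.250 FPKM with NXD30001 and listed at 0 with DMSO in culture. It was listed at 0 in both tumour libraries. Its locus is shared with 4 other rows, all listed at 0.

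Receptor make-up can be read within each library, where scaling between libraries has no part. In culture with NXD30001, Erbb3 made up 54.2% and Erbb2 43.5% of the summed receptor level of 13.2 FPKM. With DMSO, Erbb3 made up 84.1% and Erbb2 15.9% of 21.5 FPKM. Erbb2 thus stood at 0.804 times the level of Erbb3 with NXD30001 and at 0.190 times with DMSO. In the NXD30001 tumour, Erbb3 made up 39.0%, Erbb2 33.1% and Egfr 27.9% of 67.3 FPKM. In the vehicle tumour, Erbb3 made up 16.5%, Erbb2 27.2% and Egfr 56.3% of 75.2 FPKM. The order of the receptor genes was thus opposite in the tumours, with Erbb3 over Erbb2 over Egfr in the treated one and Egfr over Erbb2 over Erbb3 in the vehicle one. Erbb3 stood at 1.40 times the level of Egfr with NXD30001 and at 0.293 times with vehicle. With no replicates, neighbours in these orders cannot be shown to differ.

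**Figure D2:**
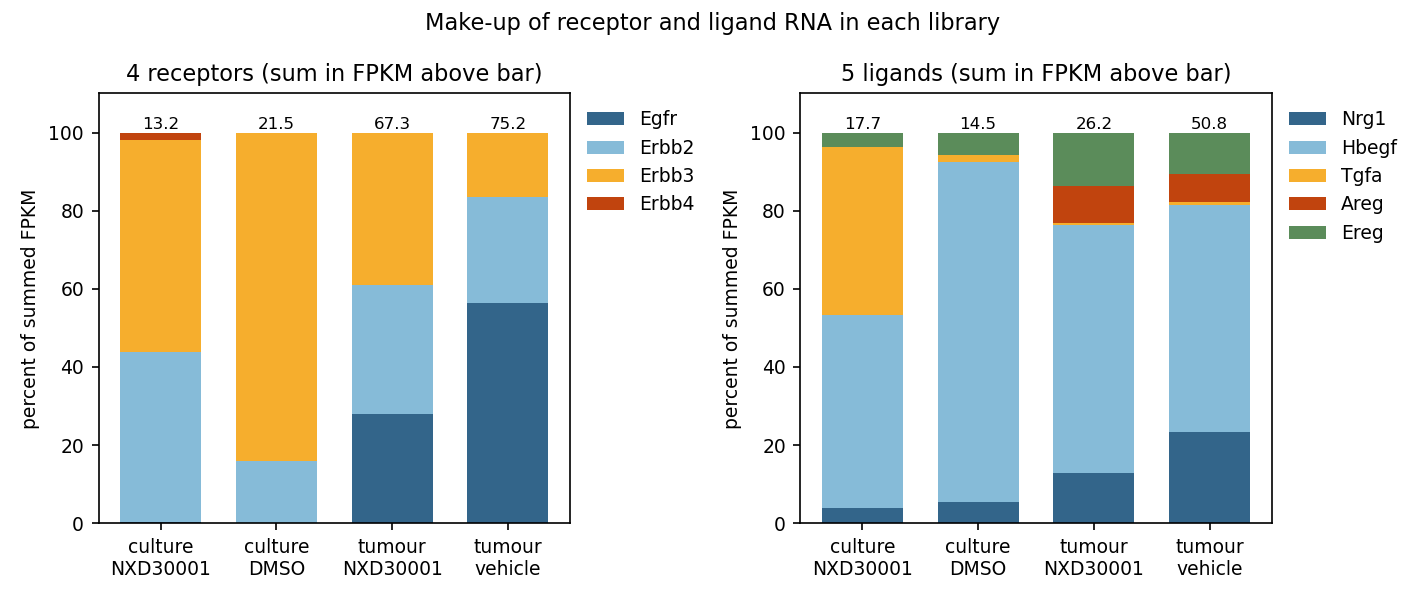
Percent of the summed FPKM of the receptor genes (left) and of the ligand genes (right) that each gene holds in each of the 4 libraries, with the sum in FPKM above each bar. Egfr is visible in the tumour bars of the receptors, and Tgfa takes 43.0% of ligand RNA in NXD30001-treated cultured cells and 1.87% with DMSO.

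Among the ligand genes, Tgfa (ENSMUSG00000029999, chromosome 6 from 86145415 to 86225151, mm9) had the largest difference of any of the 10 genes in culture. TGFα is an EGFR ligand released from a membrane precursor. Tgfa was at 7.62 FPKM with NXD30001 and 0.272 FPKM with DMSO, a ratio of 28.0. It entered the comparison only through its treated library, since the DMSO level was under 1 FPKM. The minimum level thus fixed the direction of Tgfa in culture. The difference was 2.76, the log2 ratio without a pseudocount 4.81 with an interval of 2.76 to 6.86, and the authors' deposited table called it (q of 0.000282). Depending on the pseudocount, from 5 to 0.1 FPKM, the difference ranged between 1.26 and 4.38. In tumours Tgfa was near the floor, at 0.137 FPKM with NXD30001 and 0.327 FPKM with vehicle. Tgfa was thus under 1 FPKM in both tumour libraries. The culture library with 7.62 FPKM of Tgfa held 0.0529 FPKM of Egfr, the receptor gene for this ligand.

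Nrg1 (ENSMUSG00000062991, chromosome 8 from 32928500 to 33119581, mm9) encodes the neuregulins that ERBB3 binds. It was low in culture, at 0.698 FPKM with NXD30001 and 0.788 FPKM with DMSO, in a medium that supplied neuregulin-β1. In tumours it was at 3.35 FPKM with NXD30001 and 11.8 FPKM with vehicle. The tumour difference was -1.56 with an interval of -2.66 to -0.98, and the authors' deposited table called it (q of 0.00159). Nrg1 was thus lower in the treated tumour library, in which the gene of its receptor ERBB3 was higher. It had the largest difference of the 8 genes compared in tumours.

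Hbegf (ENSMUSG00000024486, chromosome 18 from 36664588 to 36675428, mm9) encodes HB-EGF, which binds EGFR and ERBB4, and it was the most abundant of the 5 ligand genes in every library. It was at 8.76 FPKM with NXD30001 and 12.6 FPKM with DMSO in culture, a difference of -0.48. In tumours it was at 16.7 FPKM with NXD30001 and 29.6 FPKM with vehicle, a difference of -0.79. Hbegf was lower in the treated library of both tables, but by less than 2-fold. The interval was -2.21 to 1.16 in culture and -1.49 to -0.17 in tumours, and neither was called in the authors' deposited table.

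Areg and Ereg encode the EGFR ligands amphiregulin and epiregulin and lie next to each other. Ereg (ENSMUSG00000029377) spans 91503643 to 91522675 and Areg (ENSMUSG00000029378) 91568625 to 91577449 on chromosome 5 (mm9), 45.9 kb apart, with the ligand genes Epgn and Btc on either side. Areg was listed at 0 in both culture libraries. In tumours Areg was at 2.45 FPKM with NXD30001 and 3.70 FPKM with vehicle. Ereg was at 0.647 FPKM with NXD30001 and 0.825 FPKM with DMSO in culture, and at 3.60 FPKM with NXD30001 and 5.34 FPKM with vehicle in tumours. Both were thus detected mainly in tumours, and their tumour differences of -0.45 for Areg and -0.46 for Ereg were close to each other. Their intervals, -2.00 to 0.80 and -1.41 to 0.27, include 0. Of the 5 ligand genes among the members, the 4 compared in tumours were all lower with NXD30001. The median difference of all genes compared in tumours was -0.03. The summed level of the 5 ligand genes was 26.2 FPKM with NXD30001 and 50.8 FPKM with vehicle. Further ligand genes compared in tumours, Btc, Nrg2 and Nrg4, went the other way. Their list summed to 6.73 FPKM with NXD30001 and 3.15 FPKM with vehicle.

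Errfi1 (ENSMUSG00000028967, chromosome 4 from 150199842 to 150243001, mm9) encodes MIG6, also called RALT, which binds the kinase domain of EGFR and ERBB2 and inhibits them, and is itself induced by growth factor signalling. It was at 3.11 FPKM with NXD30001 and 10.5 FPKM with DMSO in culture. In tumours it was at 373 FPKM with NXD30001 and 230.1 FPKM with vehicle. It was thus lower with NXD30001 in culture and higher with it in tumours, on very different levels. The culture difference was -1.49 with an interval of -3.11 to -0.41, and -1.24 relative to the median of all genes. The tumour difference was 0.70, under 2-fold, with an interval of 0.06 to 1.33. Neither was called in the authors' deposited table (q of 0.174 in culture and 0.411 in tumours). Of 11433 genes compared in both tables, 27.5% were lower in culture and higher in tumours by any amount, so this combination of directions is common.

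In the NXD30001 tumour Errfi1 lay above 97.8% of the genes listed above 0, and in the vehicle tumour above 96.2%. In culture it lay above 42.8% with NXD30001 and 58.0% with DMSO. Within the tumours Errfi1 stood at 19.9 times the level of Egfr with NXD30001 and at 5.44 times with vehicle. Relative to Erbb3 it was at 14.2 times with NXD30001 and 18.5 times with vehicle. The Errfi1 locus is shared with 3 other rows, of which AL607084.1 was at 43.6 FPKM with NXD30001 and 74.2 FPKM with DMSO in culture. In tumours AL607084.1 was at 153 FPKM with NXD30001 and 154 FPKM with vehicle. In culture that row was several times as abundant as Errfi1 and lower with NXD30001 too, so the assignment of reads between them is uncertain.

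**Figure D3:**
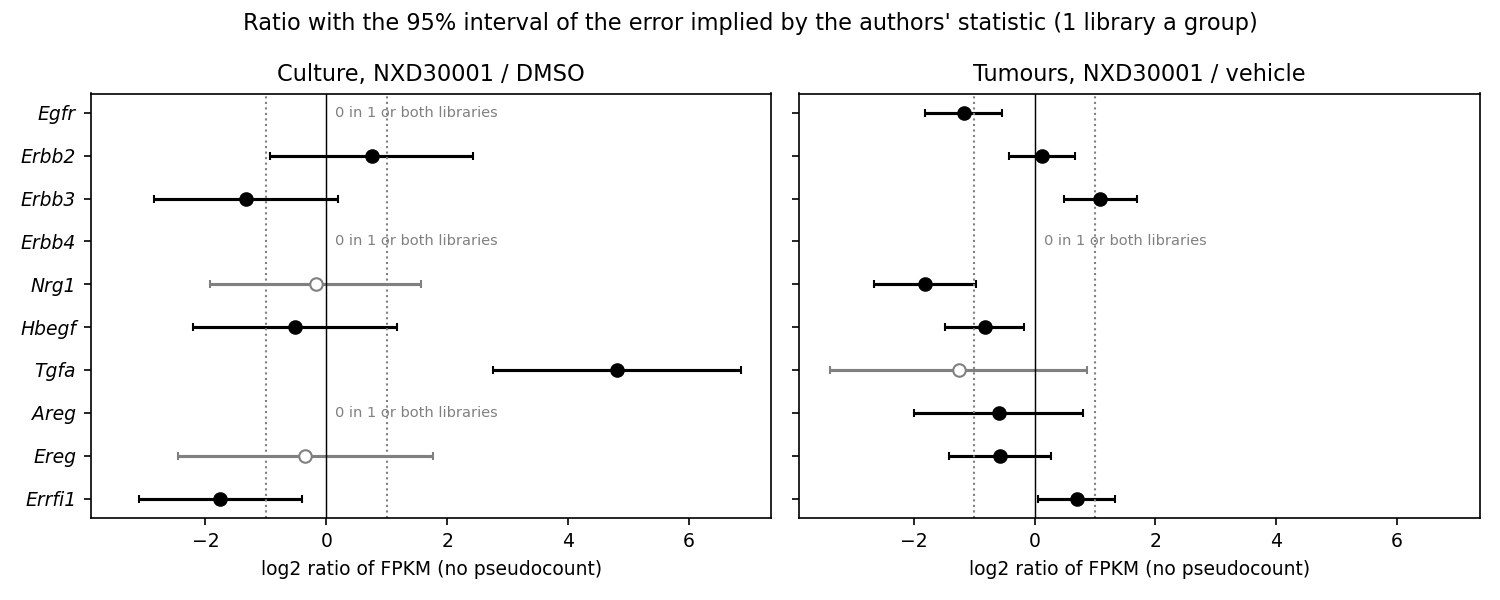
Log2 ratio of FPKM without a pseudocount, NXD30001 over DMSO in culture (left) and over vehicle in tumours (right), with the 95% interval of the error implied by the authors' statistic; open symbols are genes under 1 FPKM in both libraries and dotted lines mark 2-fold. Erbb3 lies at -1.34 in culture and 1.08 in tumours, and for Erbb2, Erbb3, Hbegf and Errfi1, the genes compared in both tables, the culture interval is the wider one.

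Promoter sequence is shown for the genes with an entry whose differences or levels are described above, so that the start regions of a receptor gene that differed (Egfr), one that did not reach 2-fold (Erbb2), the ligand gene with the largest culture difference (Tgfa), the feedback gene (Errfi1) and a ligand gene listed at 0 in culture (Areg) can be set side by side. The windows run from 250 bases before to 50 bases after a gene's start, 5′ to 3′ on the gene's strand, from RefSeq on GRCm38.p6, which is another build than the mm9 loci above. Entries matched 6 of the 10 genes, the 5 shown and Erbb4. Capitals mark matches on either strand to the core promoter box TATAAA, the cAMP response element TGACGTCA, the GC box GGGCGG, the AP-1 site TGANTCA, the TEAD site CATTCC and the heat shock element GAANNTTC.
Egfr (chr11:16751953-16752252, plus strand): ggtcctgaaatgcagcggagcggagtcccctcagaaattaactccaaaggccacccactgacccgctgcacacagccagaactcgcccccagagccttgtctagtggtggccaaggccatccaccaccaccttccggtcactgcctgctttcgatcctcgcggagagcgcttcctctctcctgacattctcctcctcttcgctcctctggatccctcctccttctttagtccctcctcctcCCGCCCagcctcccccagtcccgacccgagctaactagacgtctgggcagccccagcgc
Erbb2 (chr11:98412234-98412533, plus strand): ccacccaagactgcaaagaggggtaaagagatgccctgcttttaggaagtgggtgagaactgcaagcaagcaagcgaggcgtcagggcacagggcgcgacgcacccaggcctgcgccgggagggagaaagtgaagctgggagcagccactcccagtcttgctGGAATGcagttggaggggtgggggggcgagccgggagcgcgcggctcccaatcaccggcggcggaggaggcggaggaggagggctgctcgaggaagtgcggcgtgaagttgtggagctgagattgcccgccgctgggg
Tgfa (chr6:86194972-86195271, plus strand): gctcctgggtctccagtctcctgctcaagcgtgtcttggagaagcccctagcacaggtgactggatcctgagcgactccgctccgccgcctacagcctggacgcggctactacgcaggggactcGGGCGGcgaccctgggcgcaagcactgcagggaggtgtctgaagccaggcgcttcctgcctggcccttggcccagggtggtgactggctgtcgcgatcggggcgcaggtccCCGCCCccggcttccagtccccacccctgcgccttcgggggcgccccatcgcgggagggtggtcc
Errfi1 (chr4:150854820-150855119, plus strand): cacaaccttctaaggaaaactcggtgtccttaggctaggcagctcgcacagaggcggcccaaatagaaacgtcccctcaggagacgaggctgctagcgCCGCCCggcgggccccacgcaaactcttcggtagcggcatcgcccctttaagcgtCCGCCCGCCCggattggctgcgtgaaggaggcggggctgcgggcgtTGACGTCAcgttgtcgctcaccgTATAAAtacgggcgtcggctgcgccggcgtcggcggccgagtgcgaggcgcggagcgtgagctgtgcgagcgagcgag
Areg (chr5:91139349-91139648, plus strand): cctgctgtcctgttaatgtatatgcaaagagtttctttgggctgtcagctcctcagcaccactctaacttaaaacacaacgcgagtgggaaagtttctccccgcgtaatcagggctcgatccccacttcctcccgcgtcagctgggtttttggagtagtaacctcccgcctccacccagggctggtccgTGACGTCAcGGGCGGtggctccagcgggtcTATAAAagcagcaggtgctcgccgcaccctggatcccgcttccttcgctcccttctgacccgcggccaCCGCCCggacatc

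The Errfi1 and Areg windows had the same arrangement of 2 motifs. Each held TGACGTCA, which begins 51 bases before the start in Errfi1 and 61 bases before it in Areg, and TATAAA, which begins 28 and 31 bases before the start. TGACGTCA occurred in 1.79% and TATAAA in 13.6% of all 32851 windows. The GC box, found in 35.7% of all windows, had 3 matches in Errfi1, of which 2 overlap the same stretch of capitals, 2 in Tgfa, 2 in Areg and 1 in Egfr. CATTCC, found in 14.7% of windows, was matched once in Erbb2, on the opposite strand. Neither TGANTCA (7.81% of windows) nor GAANNTTC (7.86%) was matched in the windows shown. A second Errfi1 start listed by RefSeq, not printed, held CATTCC and none of the other motifs. These matches describe letters in the windows only, and Errfi1 and Areg did not share a pattern of levels, Areg being listed at 0 in culture where Errfi1 was present.

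Further genes of the pathway were followed in 5 lists of 62 genes. Their counts are to be read against the shares of all compared genes, which for 2-fold or more were 12.3% upward and 24.7% downward in culture, and 7.08% upward and 6.74% downward in tumours. Among those named, Nrg2, Adam12, Adam17, Adam19, Pik3r1, Shc4, Rnf41, Cblb and Cd44 lie at loci given for another row too, so their reads are less certain. In culture Nrg4, Adam12, Shc3 and Muc1 were under 1 FPKM with NXD30001 and entered only through the DMSO library. The minimum level thus fixed their direction. In tumours Nrg4 entered only through the NXD30001 library. Of 6 other ERBB ligand genes, 2 were compared in culture and both were at least 2-fold lower with NXD30001. Btc, which encodes the EGFR and ERBB4 ligand betacellulin, was at 1.25 FPKM with NXD30001 and 7.86 FPKM with DMSO in culture. In tumours Btc was at 2.89 FPKM with NXD30001 and 1.502 FPKM with vehicle. Nrg4, a neuregulin gene whose locus is also shared, was at 0.108 FPKM with NXD30001 and 1.24 FPKM with DMSO in culture. In tumours Nrg4 was at 1.59 FPKM with NXD30001 and 0.408 FPKM with vehicle. Nrg2 was at 1.83 FPKM with NXD30001 and 1.07 FPKM with vehicle in tumours. All 3 of these other ligand genes that were compared in tumours were higher with NXD30001, each by less than 2-fold on the log2(FPKM + 1) scale. Without the pseudocount the ratio of Nrg4 was 3.89 and that of Btc 1.93, and none was called in the authors' deposited table.

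Of 8 genes for the shedding of ERBB ligands from the membrane, 7 were compared in culture, 3 were at least 2-fold lower with NXD30001 and none was 2-fold higher (median -0.81). Adam17, the main sheddase of TGFα and amphiregulin, was at 24.2 FPKM with NXD30001 and 54.8 FPKM with DMSO. Adam19 was at 17.7 FPKM with NXD30001 and 52.4 FPKM with DMSO, and Adam12 was listed at 0 with NXD30001 and at 3.47 FPKM with DMSO. In tumours all 8 were compared with a median of -0.06, and 1 was at least 2-fold different. This was Adam12, a metalloprotease gene, at 15.6 FPKM with NXD30001 and 78.3 FPKM with vehicle, a difference of -2.25 that the authors' deposited table called. Rhbdf1, an inactive rhomboid gene that bears on ADAM17 maturation, was at 169 FPKM with NXD30001 and 89.9 FPKM with vehicle, a difference of 0.90 that the authors' deposited table called. Adam10, the sheddase of betacellulin, differed by -0.18 in tumours.

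Adaptors and proximal effectors, 24 genes, had 19 compared in each table. In culture 2 reached 2-fold upward and 2 reached it downward (median 0.25). Pik3cb, a catalytic PI3-kinase subunit gene, was at 25.6 FPKM with NXD30001 and 6.83 FPKM with DMSO. Pik3r1, the gene of a PI3-kinase regulatory subunit, was at 10.2 FPKM with NXD30001 and 42.8 FPKM with DMSO. Shc3, a neuronal SHC adaptor gene, was at 0.0516 FPKM with NXD30001 and 2.81 FPKM with DMSO and was called lower in the authors' deposited table. In tumours 1 was at least 2-fold higher and none was 2-fold lower (median -0.04). Shc4, another SHC adaptor gene, was at 7.41 FPKM with NXD30001 and 2.96 FPKM with vehicle, a difference of 1.09 that the authors' deposited table called. Nck1, an SH2 and SH3 adaptor gene, was at 13.5 FPKM with NXD30001 and 24.1 FPKM with vehicle. Shc4 had a failed estimate in culture and no value there.

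Genes of receptor trafficking and degradation, 17 in all with 16 compared in each table, were 2-fold lower in 3 cases and 2-fold higher in 1 in culture (median -0.56), and all within 2-fold in tumours (median 0.02). The culture counts do not exceed the shares of all genes. In culture Sh3kbp1, which encodes the CBL-binding endocytic adaptor CIN85, was at 47.8 FPKM with NXD30001 and 215 FPKM with DMSO, a difference of -2.15 that the authors' deposited table called. Spry2, a feedback inhibitor gene of receptor tyrosine kinase signalling, was at 5.96 FPKM with NXD30001 and 21.1 FPKM with DMSO. Rnf41, which encodes NRDP1, a ubiquitin ligase for ERBB3, was at 5.72 FPKM with NXD30001 and 1.82 FPKM with DMSO in culture. The Rnf41 difference of 1.25 was opposite in sign to that of Erbb3 in culture, with an implied error of 0.99 (log2). The Rnf41 difference of 0.27 in tumours had the same sign as that of Erbb3 there. The authors' deposited table called Rnf41 in neither comparison, and a link between Rnf41 and Erbb3 levels was not tested. In tumours Spry2 was at 68.4 FPKM with NXD30001 and 44.0 FPKM with vehicle. Cblb, a ubiquitin ligase gene, was at 13.7 FPKM with NXD30001 and 8.70 FPKM with vehicle, and Lrig2 at 6.85 FPKM with NXD30001 and 5.45 FPKM with vehicle. Spry2, like Errfi1, was lower with NXD30001 in culture and higher with it in tumours, by less than 2-fold in the tumours. Of all genes compared in both tables, 27.5% had this combination of directions. The authors' deposited table called Spry2 in neither comparison.

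Of 7 receptor partners and chaperones, all were compared in culture and 2 were at least 2-fold lower there (median 0.45). In tumours 6 were compared and all were within 2-fold (median -0.04). Cd44, a membrane glycoprotein gene whose product can act beside ERBB receptors, was at 6.23 FPKM with NXD30001 and 59.1 FPKM with DMSO, a difference of -3.06. In tumours Cd44 was at 99.5 FPKM with NXD30001 and 192 FPKM with vehicle, a difference of -0.94. The authors' deposited table called both. Erbb2ip, which encodes the ERBB2-binding scaffold erbin, was at 151 FPKM with NXD30001 and 77.4 FPKM with DMSO in culture, and Muc1 was listed at 0 with NXD30001 and at 1.12 FPKM with DMSO. Cdc37, the kinase co-chaperone gene of HSP90, was at 228 FPKM with NXD30001 and 189 FPKM with vehicle in tumours, and Memo1, an ERBB2-interacting mediator gene, was at 34.0 FPKM with NXD30001 and 36.0 FPKM with vehicle.

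**Figure D4:**
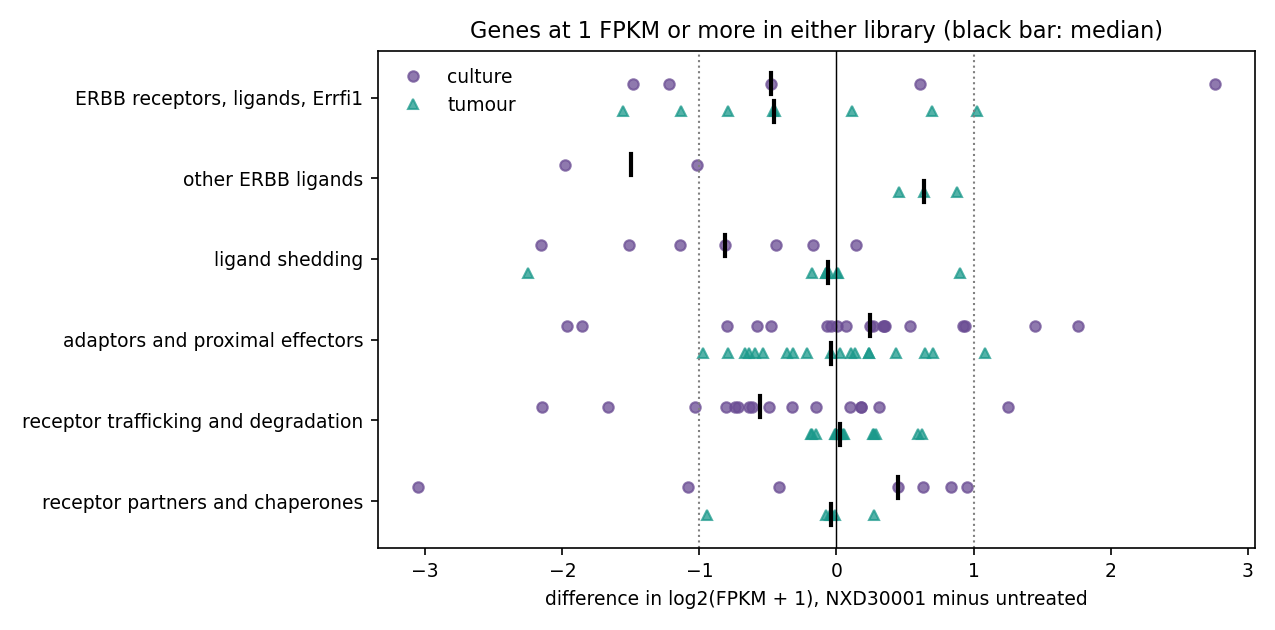
Difference in log2(FPKM + 1), NXD30001 minus untreated, of each compared gene in the ERBB family and in the 5 pathway lists, for culture (circles) and tumours (triangles), with the median as a black bar and dotted lines at 2-fold. The trafficking genes spread from -2.15 to 1.25 in culture and from -0.18 to 0.62 in tumours.

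Genes with the most similar pair of differences were searched for 4 of the 10 genes, by the Euclidean distance over the 2 comparisons. For Erbb3 (-1.22 in culture, 1.03 in tumours) the nearest of 8797 genes were Tprgl, Plat and Cacna1h, at distances of 0.06, 0.08 and 0.08. Plat, the tissue plasminogen activator gene, differed by -1.23 in culture and 0.95 in tumours. For Errfi1 they were Mtg1, Mett5d1 and Zkscan2, at 0.03, 0.03 and 0.05. For Egfr they were Zfp3, Atp5o and Lias, and for Nrg1 Tnfrsf10b, Rab2b and Grb10, but the culture values of Egfr and Nrg1 come from levels under 1 FPKM. Likeness over 2 comparisons of single libraries describes these values only.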

How the data were processed

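RNA of cultured cells and tumours was isolated with Trizol and a column kit, per the labels' protocols. CASAVA, TopHat 1.2.0, Cufflinks 1.0.2, Cuffdiff and the build mm9 are named in the submitters' processing notes. The sources used here do not say whether libraries kept strand. The deposited levels are FPKM, 1 column per library. The authors also deposited, per the file headers, a natural log fold change, a test statistic, a p-value and a q-value, the last 3 used as the scores of the authors' own 2-library test. Uncalled q-values reached 2.05. The implied error is the deposited natural log fold divided by the statistic, put on the log2 scale. The sign of the statistic is opposite to the fold in 100% of rows.

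With Python 3.11.15 and pandas 2.3.3, rows of status FAIL (705 in culture, 347 in tumours) and LOWDATA (61 and 449) were left out, a repeated symbol kept its highest row, and genes reaching 1 FPKM in either library entered with a pseudocount of 1 FPKM. Group labels came from the treatment field, since the sample type field calls all 4 samples cultured cells. The tables were normalized separately. From genes whose implied error equals that of single fragments (1 per library), the NXD30001 library was 1.05 times as deep as the DMSO library (42 genes) and 1.19 times as deep as the vehicle library (64 genes). Starts were moved by 1 base, since end minus start equalled the GENCODE M21 gene length at 10580 loci and the length less 1 at 268. No test between groups was run. The counting of 2-fold differences was checked on simulated tables. The members, the pathway lists, the markers and the rules for named genes (all 10 members, up to 3 genes with the largest difference per list and table, and the 3 nearest genes for likeness) were chosen with earlier results of these data known. Not every gene that meets these rules is reported here, but list counts include all of them. Alternatives were other pseudocounts, minimum levels and folds, centring on the median, the authors' calls and loci of 1 row.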

Additional observations from a re-analysis of the deposited data

Results flagged for a closer look

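Erbb3 and Errfi1 differed in opposite directions under the same drug in the 2 tables. Erbb3 differed by -1.22 with NXD30001 in culture and by 1.03 in tumours. Errfi1 differed by -1.49 in culture and by 0.70 in tumours. Of 11433 genes compared in both tables, 27.5% were lower in culture and higher in tumours by any amount, and 1.57% by at least 2-fold in both. The Erbb3 interval in culture was -2.86 to 0.19. The authors' deposited table called neither Errfi1 difference, and the Errfi1 locus is shared with a row that was more abundant in culture. The difference between culture and tumours was not tested, since each direction rests on 1 library per group, exposure was 24 h in culture and 4 weeks in mice, and the tumours hold host cells.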

How the results depend on the processing

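No paired analysis was possible because each group has 1 library, and for the same reason no library could be left out. Of the members' 13 differences none changed sign under the other pseudocounts or centring, and no pathway gene at least 2-fold different did. The count of members at least 2-fold different was 3 in each table. It was 1 in culture (Tgfa) and 1 in tumours (Nrg1) with a pseudocount of 5 FPKM, 1 in culture by the authors' deposited calls, and 5 in tumours at 1.5-fold, where Errfi1 and Hbegf were added. Centring took Erbb3 out of the culture count, and restricting to loci of 1 row took out Errfi1 in culture and Egfr in tumours. Over all genes the count was 4611 in culture and 2124 in tumours. With a pseudocount of 5 FPKM it was 2484 and 806, at 1.5-fold 7361 and 4400, by the authors' deposited calls 1245 and 861, and at loci of 1 row 2774 and 1065. Centring put the share of higher genes among those changed in culture at 49.1%, against 33.3% without it. Depth limits the genes under 1 FPKM, for which neither presence nor absence can be stated firmly.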
